A study of Homo sapiens with 2 samples.

Results

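The human UBE2 genes encode the ubiquitin-conjugating enzymes, and their transcripts were examined here for crosslink sites of the RNA-binding protein RBMS3. The members were all protein-coding genes of GENCODE release 44 whose name starts with UBE2, which gave 37 of 20046 protein-coding genes. RBMS3 binds AU-rich RNA and was expressed with an N-terminal FLAG tag from a stably transduced lentiviral vector in MDA-MB-231, a triple-negative breast cancer cell line that also makes its own RBMS3. The only group, FLAG-tagged RBMS3, held 2 biological replicates, without a control library among the samples analysed here. The source and cell line labels of replicate 2 read MDA-MB-232, whereas its title reads MDA-MB-231. CLIP-seq (ultraviolet crosslinking, recovery of the protein through FLAG and sequencing of the bound RNA) gave a list of 27706 sites, of which 122 lay in UBE2 genes on the transcribed strand.

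Ubiquitin is passed from an activating enzyme to a cysteine of a conjugating enzyme, the E2, and from there to a substrate with the help of a ligase. The E2 largely decides which kind of ubiquitin chain is built, and with it whether a substrate is degraded by the proteasome or takes part in signalling or DNA repair. A few members of the family carry a ubiquitin-like modifier such as NEDD8 instead of ubiquitin.

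A site is read as a base at which reverse transcription skipped the crosslinked nucleotide, so that sequenced tags carry a deletion there. At 13 UBE2 sites every tag carried it. Without a control library it was not tested whether a listed deletion came from a crosslink. Each site has 2 numbers, the tags that covered it and the tags with the deletion, both summed over the replicates before the sites were called. No value per replicate was therefore at hand, no test between samples was possible, and the 95% Wilson intervals given below cover counting error only. Neighbouring sites share tags and are not independent measurements. The depth at a site ranged from 10 to 35566 tags over the UBE2 3′UTR sites.

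The sequences around the leading sites show what the RNA looked like at the listed deletions. Each run has 30 bases of the transcribed strand in hg38, written 5′ to 3′ as DNA, and the deleted base is base 16. Capitals mark the poly(A) signals AATAAA or ATTAAA, the hexamers that direct cleavage and polyadenylation of an mRNA. Shown are the 6 members with the most deletions at a single site, followed by 3 members whose leading site carried a signal far from any annotated transcript end (UBE2J1 and UBE2R2) or at an annotated end upstream of the canonical one (UBE2K), and by UBE2N and UBE2Q1, whose leading site had none.
UBE2C: tATTAAATAAAtgcatttttgtcctttttt
UBE2E1: ctacttaagtctgcatttgttactgtgcta
UBE2T: aAATAAAtagtcatttaatgttgagtatgt
UBE2H: aactgtaaacttttttaAATAAAcgtgtat
UBE2A: tgtcattacatttactttATTAAAagcaaa
UBE2D3: aatgAATAAAagtcaatgctattggattgt
UBE2J1: aattgtcttaaactttAATAAAttcgcatt
UBE2R2: tcgaaagcctgaAATAAAtattcatacttt
UBE2K: cttgatactagaagcAATAAAagaaccatt
UBE2N: tagtaaaatattttttgttattctactttg
UBE2Q1: aaaacaattacagtttgttaatttgaagat
The signal of UBE2E1 starts 14 nt downstream of its deletion and runs past the end of the printed run. In UBE2C, UBE2T and UBE2D3 the signal lay upstream of the listed deletion, and in UBE2H, UBE2A, UBE2J1 and UBE2E1 it started downstream. In UBE2K it started at the listed base, and in UBE2R2 the deletion fell inside it. Several deletions fell in a stretch of the same base, 5 long in UBE2C and 6 in UBE2H. Within such a stretch the lost base cannot be placed exactly, so positions refer to the listed base. UBE2B is shown for another element, the AUA motif, which holds ATA within 7 bases of A and T (with G also allowed at its start) and is marked by capitals here.
UBE2B: gaaaagcacttaaagttttTTATATAtgaa
No AATAAA or ATTAAA was found within 25 nt of any of the 9 UBE2B sites.

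Of the 37 members, 26 held at least 1 site, or 70.3% (interval 54.2 to 82.5%), where 37.6% of all protein-coding genes did. A site in the 3′UTR was present in 25 members, or 67.6% (51.5 to 80.4%), against 31.8% of all protein-coding genes. With sites that lie in more than 1 gene left out, 24 members held a site and 23 a 3′UTR site. The shares of all protein-coding genes were not computed with such sites left out, so these counts have no matched comparison. With the deletion required in at least 10% of tags, 17 members held a site, or 45.9%, against 23.1% of all protein-coding genes, and 14 held a 3′UTR site, or 37.8%, against 13.6%. No RNA abundance was measured in these libraries, so a transcript without RBMS3 contact and a transcript with too few copies to give a site cannot be told apart. The Ensembl canonical 3′UTR was 1922 nt long at the median in the 25 bound members and 1373.5 nt in the 12 others, whereas over all protein-coding genes it was 1676 nt in those with a 3′UTR site and 768 nt in those without. The part of 3′UTR length in these counts was not tested.

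The 11 members without any site were UBE2D4, UBE2F, UBE2F-SCLY, UBE2L3, UBE2L5, UBE2L6, UBE2M, UBE2NL, UBE2QL1, UBE2S and UBE2U. UBE2E2 had 2 sites, both intronic. UBE2L3, a partner of HECT and RING-between-RING ligases, and UBE2M, the NEDD8 conjugating enzyme, were thus among the members without a site. The canonical transcript ended with AATAAA in its last 50 nt in 21 members, of which 17 had a 3′UTR site. It had ATTAAA there in 7 members, of which 4 had one, and neither in 9 members, of which 4 had one. Across all protein-coding genes the bound share was 34.4%, 34.5% and 22.7% in the same order.

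Almost all UBE2 sites lay in 3′UTRs. There were 114 of them among the 122, or 93.4% (87.6 to 96.6%), while 84.7% of the sites in all protein-coding genes were in 3′UTRs. The others comprised 6 intronic sites and 2 in coding sequence, in UBE2K and UBE2Q1, and no site lay in a 5′UTR. All 8 sites outside 3′UTRs were thinly covered and had the deletion in every tag, with 7 to 33 deletions and a median of 11.5. UBE2K, a builder of degradation-type ubiquitin chains, held 4 of the 8, with 33 of 33, 26 of 26, 16 of 16 and 7 of 7 tags. UBE2E2 held 14 of 14 and 9 of 9, UBE2Q1 8 of 8, and UBE2O 7 of 7.

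**Figure D1:**
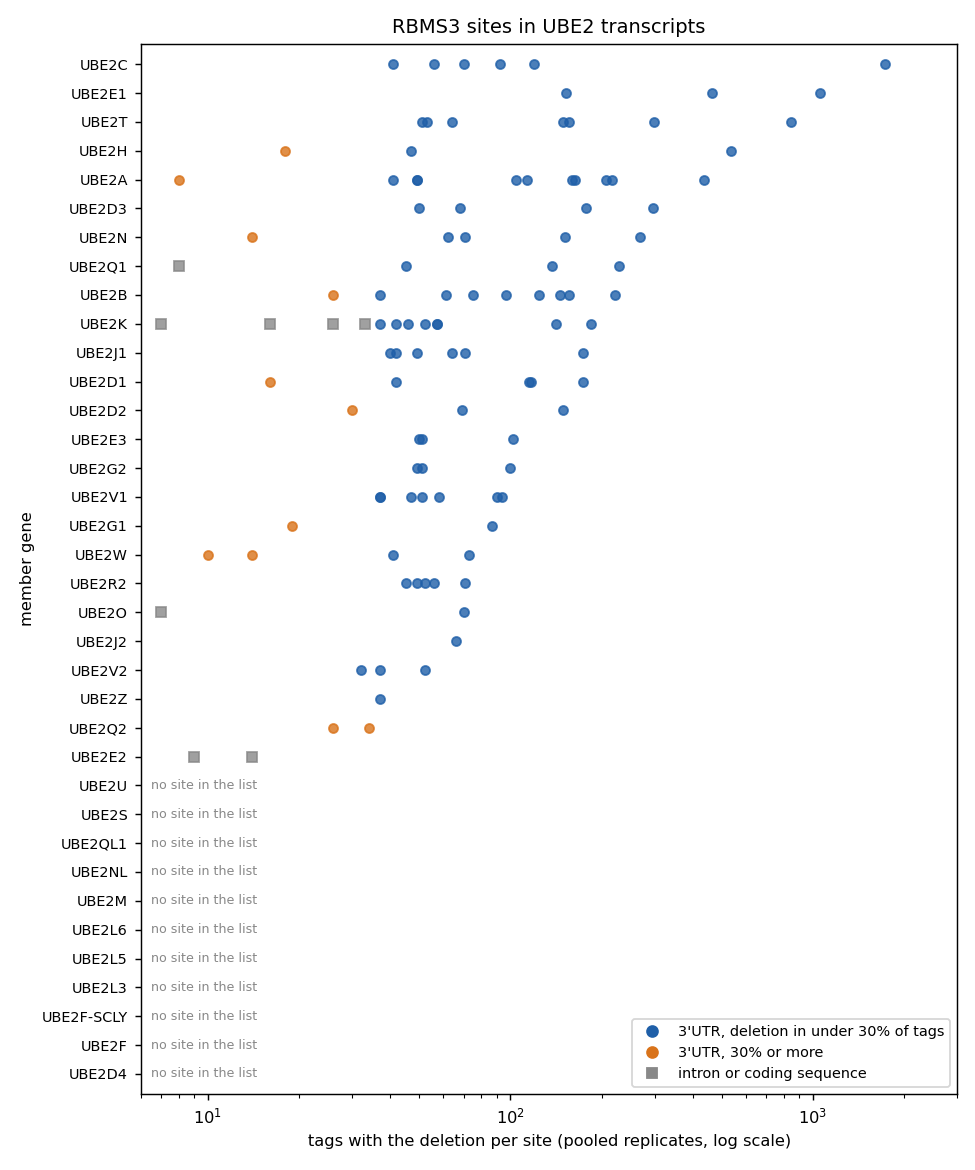
Tags with the deletion at each site (pooled replicates, log scale) for the UBE2 members named in the text, ordered by their highest 3′UTR site; blue circles are 3′UTR sites with the deletion in under 30% of tags, orange circles 3′UTR sites at 30% or more, and grey squares intronic or coding sites. UBE2C stands at the top with 1735 deletions, the orange and grey points all lie at or under 34, and 11 members have no site.

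The 3′UTR sites were divided by a fixed cut at 30% of tags with the deletion. At 103 of 114 sites, or 90.4% (83.5 to 94.5%), the deletion was in under 30% of tags, with a median of 70 deletions among 6201 tags. At the other 11 sites the median was 18 deletions among 24 tags, with 8 to 34 deletions in all. The corresponding share under 30% over all protein-coding genes was 87.1%, and their median site had 64 deletions, as did the median UBE2 site. The highest site of a bound member had between 34 and 1735 deletions with a median of 173, and that of all bound genes had a median of 82.

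The 3 members with the most deletions were E2s of the cell cycle, of DNA repair and of the broadly active group. UBE2C, which works with the anaphase-promoting complex to mark mitotic cyclins for destruction, had the deletion in 1735 of 35566 tags, or 4.88% (4.66 to 5.11%), at chr20:45816937 on the plus strand. By deletions this site ranked 36 among the 21222 3′UTR sites of protein-coding genes. The 5 further sites of UBE2C carried 120 of 34645, 92 of 23140, 70 of 32031, 56 of 30258 and 41 of 479 tags. All 6 lay between 6 and 80 nt from the annotated 3′ end, and a single base took most of the deletions of this transcript. UBE2S, the E2 that extends chains on the same complex, had no site. Its canonical transcript has AATAAA in its last 50 nt, and 34.4% of all protein-coding genes with AATAAA there had a 3′UTR site.

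The chromatin and DNA repair group had sites in all 3 of its members, 27 in the 3′UTR in total. UBE2T, the E2 of the Fanconi anaemia pathway, had the deletion in 843 of 23245 tags, or 3.63% (3.39 to 3.87%), at chr1:202331665 on the minus strand, 7 nt before an annotated end. Its other 6 sites had 297 of 25532, 156 of 25754, 149 of 12324, 64 of 8763, 53 of 3460 and 51 of 374 tags. The 7 sites formed 1 cluster (sites within 50 nt of each other), and the number of deletions fell away upstream from the end of the transcript. The percentage of tags with the deletion did not fall in the same way. At the most upstream site, covered by only 374 tags, it was 13.6%, against 3.63% at the leading site.

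UBE2A and UBE2B are the human counterparts of yeast Rad6 and ubiquitinate histone H2B and the replication clamp PCNA. UBE2A had the deletion in 436 of 6937 tags, or 6.29% (5.74 to 6.88%), at chrX:119583342 on the plus strand, 5 nt before an annotated end upstream of the canonical one. In the same cluster lay sites with 163 of 6255 and 49 of 6731 tags. A second cluster, about 1 kb downstream at another annotated end, held 216 of 13416, 207 of 18072, 160 of 19975, 113 of 19933, 104 of 8408, 49 of 16539 and 41 of 16169 tags. UBE2A thus had listed sites at separate ends of the same gene, the first beside ATTAAA and the second beside AATAAA. Its remaining site had 8 of 12 tags.

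The strongest UBE2B site had 221 of 6279 tags, or 3.52% (3.09 to 4%), at chr5:134390724 on the plus strand and 59 nt before an annotated end. The sites closest to that end had 156 of 23192, 124 of 19390, 97 of 23595, 75 of 20967 and 61 of 19247 tags. Further upstream, 146 of 3293 and 37 of 2686 tags carried the deletion, and a separate site had it in 26 of 26 tags. UBE2A and UBE2B encode nearly identical enzymes, yet the signal hexamers near all but 2 of the UBE2A sites were absent within 25 nt of every UBE2B site.

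The 9 E2s grouped here as broadly active, with UBE2L3 and UBE2W placed among them, had 3′UTR sites in 6 members, 22 in total. UBE2E1, which attaches a first ubiquitin with many RING ligases, had the deletion in 1058 of 12306 tags, or 8.6% (8.11 to 9.11%), at chr3:23891271 on the plus strand. Its other sites had 464 of 25264 and 152 of 24244 tags, and all 3 lay 22 to 43 nt before an annotated end. The related UBE2E3 reached 102 of 13195 tags, or 0.773% (0.637 to 0.937%), with further sites at 51 of 6408 and 50 of 14164. Coverage was of the same order at both leading sites, and the percentage with the deletion was higher in UBE2E1. The sites also differ in deleted base and distance to an end, T at 43 nt in UBE2E1 and A at 20 nt in UBE2E3. The difference between them was not tested.

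The UBE2D proteins start ubiquitin chains with a wide range of ligases. UBE2D3 had the deletion in 295 of 8729 tags, or 3.38% (3.02 to 3.78%), at chr4:102795986 on the minus strand, with 50 of 8208 tags beside it. A second UBE2D3 cluster lay 480 to 486 nt from the nearest downstream end, with 178 of 7975 and 68 of 6201 tags, and it too held AATAAA. UBE2D1 had 173 of 4794 tags, or 3.61% (3.12 to 4.17%), at chr10:58369564 on the plus strand, 31 nt before an end. The other UBE2D1 sites had 117 of 5116, 115 of 2912, 42 of 5706 and 16 of 16 tags. The strongest of the 3 UBE2D2 sites had 149 of 2288 tags, or 6.51% (5.57 to 7.6%), 26 nt before an early annotated end, while the site at a later end had a lower percentage on more tags, 69 of 17522. The remaining site had 30 of 30. UBE2D4 had none, so 3 of the 4 UBE2D genes were bound. UBE2W, which adds ubiquitin to protein N termini, had 4 sites, led by 73 of 644 tags (11.3%, 9.11 to 14%), with 41 of 1338, 14 of 24 and 10 of 10 tags. All 4 UBE2W sites also lay inside another annotated protein-coding gene of the same strand, and their tags cannot be divided between the genes.

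All 6 E2s of degradation-type chains and of protein degradation at the endoplasmic reticulum had a 3′UTR site, 25 in total. UBE2K had 184 of 8334 tags, or 2.21% (1.91 to 2.55%), at chr4:39779974 on the plus strand, with 141 of 2913, 46 of 9153 and 37 of 4189 tags in the same cluster at an early annotated end. Near the canonical end, 57 of 1118, 57 of 2729 and 52 of 926 tags carried the deletion. A site 348 nt from the nearest end had 42 of 1367. UBE2J1, an E2 anchored in the membrane of the endoplasmic reticulum, had as many deletions at its leading site as UBE2D1, 173 of 4474 tags or 3.87% (3.34 to 4.47%), at chr6:89328094 on the minus strand. That site and its neighbour with 64 of 3503 tags lay 1469 and 1453 nt from the nearest downstream end. Sites with 42 of 393, 71 of 457, 49 of 1476 and 40 of 467 tags followed at 1033, 569, 540 and 7 nt from the end. UBE2J1 therefore carried clusters along its 3′UTR, and the most deletions were at the most upstream of them.

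UBE2J2, the other membrane-anchored E2, had 1 site with 66 of 3996 tags, or 1.65% (1.3 to 2.1%), 19 nt before an end. UBE2R2, a partner of cullin ligases, had 71 of 5299 tags, or 1.34% (1.06 to 1.69%), at chr9:33917968 on the plus strand, with 45 of 5295 and 52 of 4906 tags nearby. These lay 2419 to 2720 nt upstream of the annotated end. At the end itself 56 of 4057 tags (1.38%, 1.06 to 1.79%) and 49 of 3202 tags carried the deletion. The percentage at the strongest site there was close to that at the strongest site upstream. UBE2G1 had 87 of 4109 tags (2.12%, 1.72 to 2.6%) and 19 of 24, and UBE2G2, which works with ligases of the endoplasmic reticulum, had 100 of 1955 tags (5.12%, 4.22 to 6.18%), 51 of 2006 and 49 of 2181.

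The E2s of signalling-type chains, linked through lysine 63 of ubiquitin, were bound in 3 of 4 members. UBE2N, the catalytic subunit, had 267 of 6590 tags, or 4.05% (3.6 to 4.56%), at chr12:93409366 on the minus strand, with 151 of 7364 and 62 of 3713 tags in the same cluster. This cluster lay 995 to 1028 nt before the nearest annotated end and held no AATAAA or ATTAAA. At an annotated end further downstream 71 of 4924 tags carried the deletion, beside ATTAAA, and the fifth site had 14 of 17. Its catalytically inactive partner UBE2V1 had 7 sites, led by 94 of 6190 tags (1.52%, 1.24 to 1.85%) at 255 nt from the end and by 90 of 5931 tags (1.52%, 1.24 to 1.86%) at 15 nt from it. All 7 are shared with the read-through gene PEDS1-UBE2V1. The 3 sites of UBE2V2, the other partner, lay 2828 to 3043 nt from the nearest end and had 52 of 963 tags (5.4%, 4.14 to 7.01%), 37 of 270 and 32 of 156. The intronless relative UBE2NL had no site.

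Of the E2s that carry NEDD8 or ISG15, or are charged by the activating enzyme UBA6, UBE2Z had 1 site with 37 of 1725 tags (2.14%, 1.56 to 2.94%). UBE2F and UBE2M, both for NEDD8, and UBE2L6, for ISG15, had no site.

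The remaining group had 3′UTR sites in 4 of 8 members. UBE2H, which works with the CTLH ligase complex, had 536 of 14428 tags, or 3.71% (3.42 to 4.04%), at chr7:129830759 on the minus strand, 15 nt before the end, with 47 of 1913 tags at 2069 nt and 18 of 18 at 437 nt. UBE2Q1 had 228 of 8723 tags, or 2.61% (2.3 to 2.97%), at chr1:154549994 on the minus strand, with 137 of 8823 and 45 of 8230 tags beside it, all 1416 to 1436 nt from the nearest end. UBE2O, an E2 that also acts as its own ligase, had 70 of 606 tags (11.6%, 9.24 to 14.3%). UBE2Q2 had 34 of 72 tags (47.2%, 36.1 to 58.6%) and 26 of 57 tags, and was the only bound member with both sites at 30% or more and none below.

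**Figure D2:**
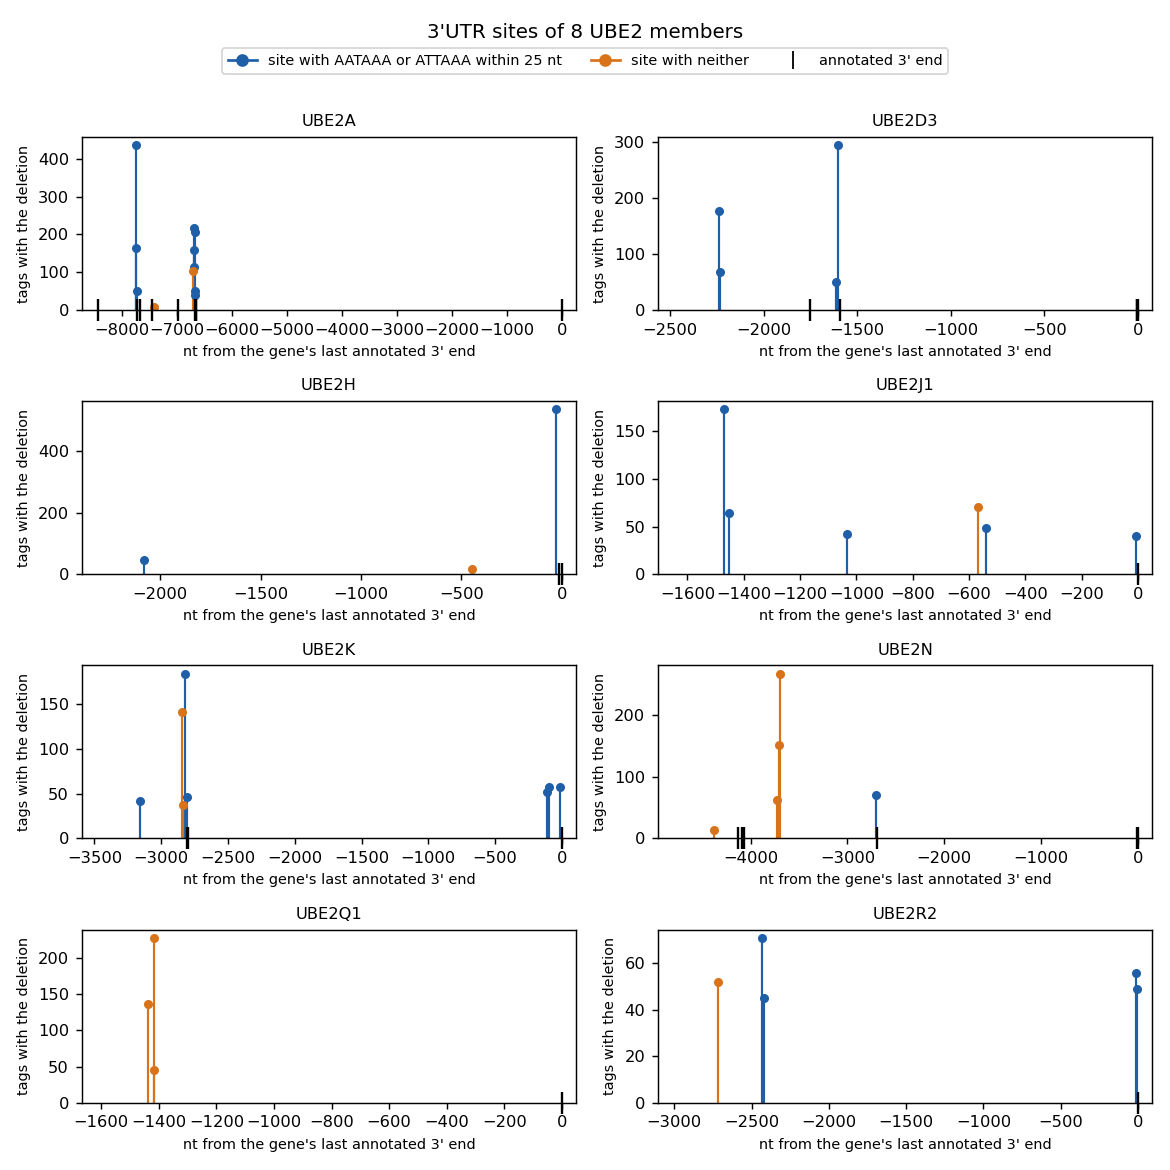
Tags with the deletion at each 3′UTR site (vertical axis, own scale per panel) against the distance in nt from the last annotated 3′ end of the gene for 8 UBE2 members; blue stems have AATAAA or ATTAAA within 25 nt, orange stems have neither, and black ticks on the axis are annotated 3′ ends. UBE2A, UBE2D3, UBE2H and UBE2K have their highest stem at a tick, whereas the highest stems of UBE2J1, UBE2N, UBE2Q1 and UBE2R2 stand away from the downstream ticks.

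Measured over all transcripts of each gene, the UBE2 3′UTR sites lay 3 to 3043 nt from the nearest downstream 3′ end, with a median of 35.5 nt, and the sites of all protein-coding genes had a median of 34 nt. Within 100 nt of an end lay 70 of 114 sites, or 61.4% (52.2 to 69.8%), against 69.3% over all genes. At sites with the deletion in at least 10% of tags the median was 428 nt and 31.6% lay within 100 nt, against 439 nt and 29.7% over all genes. Without a minimum percentage, at least 1 3′UTR site within 100 nt of an end was found in 23 of the 25 bound members, or 92% (75 to 97.8%). The share was 81% of all bound genes. UBE2Q1 and UBE2V2 were the exceptions. UBE2A, UBE2D2, UBE2K and UBE2W had sites within 100 nt of 2 or more separate ends. The library was made by adding a poly(A) tail and capturing with oligo(dT), which can also take mRNA through its natural poly(A) tail. Its part in the position of these sites was not tested.

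This closeness to ends depended on which transcripts were counted. With transcripts of the protein_coding class only, the UBE2 median rose to 262 nt and the share within 100 nt fell to 46.5%, while the values of all genes were 39 nt and 64.5%. With 1 representative transcript per gene the UBE2 median was 756 nt and 38 of 112 sites, or 33.9%, lay within 100 nt, against 98 nt and 50.2%. Counted by the leading site of each bound member, 18 of 25, or 72% (52.4 to 85.7%), lay within 100 nt of some annotated end, and 8 of 25, or 32% (17.2 to 51.6%), within 100 nt of the end of the canonical transcript. Over all bound genes these shares were 75% and 55.6%. The members near the canonical end were UBE2C, UBE2E3, UBE2G1, UBE2H, UBE2J2, UBE2O, UBE2T and UBE2Z.

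The 10 members whose leading site lay near the end of another transcript but not near the canonical one were UBE2A, UBE2B, UBE2D1, UBE2D2, UBE2D3, UBE2E1, UBE2G2, UBE2K, UBE2Q2 and UBE2W. The distance from that site to the canonical end was 1081 nt in UBE2A, 1384 nt in UBE2B, 1184 nt in UBE2D1, 1605 nt in UBE2D2, 1603 nt in UBE2D3 and 2818 nt in UBE2K. In UBE2Q2 it was 102 nt, just past the limit. By contrast, the leading sites of UBE2J1, UBE2N, UBE2Q1, UBE2R2, UBE2V1 and UBE2V2, were near no annotated end. The Rad6 pair and all bound UBE2D genes thus had their strongest site at an earlier annotated end, over 1 kb upstream of the canonical one.

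**Figure D3:**
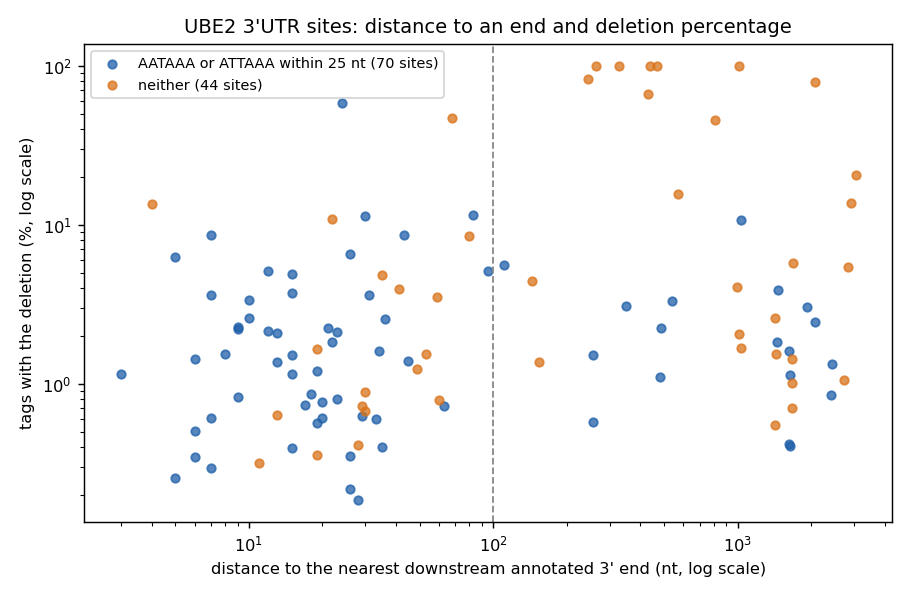
Percent of tags with the deletion (log scale) against the distance in nt to the nearest downstream annotated 3′ end (log scale) for the 114 UBE2 3′UTR sites; blue points have AATAAA or ATTAAA within 25 nt, orange points have neither, and the dashed line is at 100 nt. Most blue points lie to the left of the line and below 10%, and 9 of the 11 sites at 30% or more stand to the right of it.

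The 114 sites formed 54 clusters. In 32 of them, or 59.3% (46 to 71.3%), AATAAA or ATTAAA lay within 25 nt of the strongest deletion on the transcribed strand, and the share over the 9975 3′UTR clusters of all protein-coding genes was 60.6%. AATAAA was present in 28 UBE2 clusters (51.9%, all genes 47.4%) and ATTAAA without it in 4 (7.41%, all genes 13.2%). Relative to the deleted base the signal started between 17 nt upstream and 16 nt downstream, with a median of 5 nt upstream. It started upstream in 20 clusters and at the deleted base or downstream in 12. Over all genes the median was 1 nt upstream, with 3071 clusters upstream and 2974 at the deleted base or downstream. For a deletion in a stretch of the same base, these offsets refer to the listed base.

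The share with a signal was lower at 27.8% with windows of 10 nt on each side, where it was 28.5% over all genes. It was 21.1% at sites with the deletion in at least 10% of tags, against 25.6%.

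Closeness to an annotated end and presence of the signal went together in these clusters. Of the 28 UBE2 clusters within 100 nt of an end 24 had a signal, or 85.7% (68.5 to 94.3%), and of the 26 further away 8 had one, or 30.8% (16.5 to 50%). The shares over all genes were 75.6% and 39%. AATAAA lay in the last 50 nt of the canonical transcript in 12718 protein-coding genes, counted with or without a site. ATTAAA without it lay there in 2789 and neither in 4539. What RBMS3 adds to the link between ends and signals was not tested. The 8 distant clusters with a signal were those of UBE2D3, UBE2H, UBE2K, UBE2R2, UBE2V1 and UBE2W and 2 of UBE2J1. At the 2 strongest of these, the deletion was in 178 of 7975 tags in UBE2D3 and in 173 of 4474 in UBE2J1.

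The AUA motif (both the ATA core and its flanks as above, read on the transcribed strand only) was found in 26 of the 54 clusters, or 48.1% (35.4 to 61.1%), against 47.8% over all genes. It was found in 13% with windows of 10 nt on each side, against 20.6%, and in 26.3% at sites with at least 10% of tags, against 24.6%. Since the motif can overlap AATAAA, matches apart from it were counted too and were present in 9 clusters, or 16.7% (9.02 to 28.7%), against 14.6%. The leading UBE2B site had such a match. The deleted base was T in 39 clusters, or 72.2% (59.1 to 82.4%), A in 10, G in 3 and C in 2, and the share of T over all genes was 74.3%. In 32 of the 39 the T stood in a run of at least 3, as in UBE2C, where the run had 5. For poly(A) signals, AUA motif and deleted base alike, with windows of 25 nt the value over all genes lay inside the interval of the UBE2 clusters.

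More than 1 cluster was present in 16 of the 25 bound members, or 64% (44.5 to 79.8%), against 36% of all bound genes. UBE2J1, UBE2K and UBE2W had 4 each. UBE2C, UBE2T and UBE2E1, which had the most deletions, had 1 cluster each. The canonical 3′UTR was 185 nt long in UBE2C and 178 nt in UBE2T. In UBE2E1 it was 1034 nt. The part of 3′UTR length in the number of clusters was not tested.

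**Figure D4:**
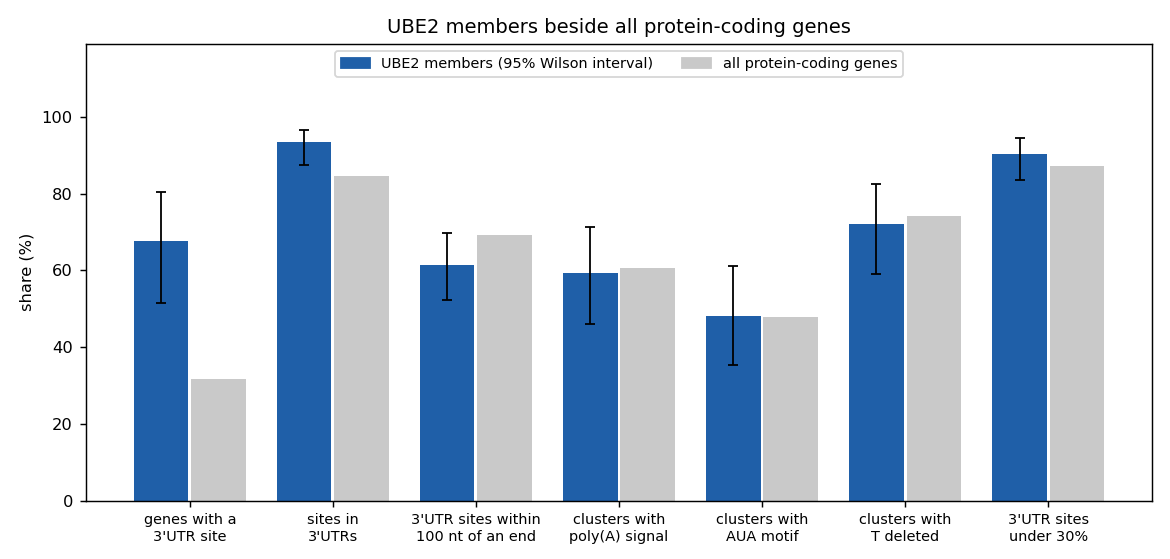
Shares in percent for the UBE2 members (blue bars, with 95% Wilson intervals) beside all protein-coding genes (grey bars) for 7 measures. The bars stand apart for genes with a 3′UTR site (67.6% against 31.8%), sites in 3′UTRs are at 93.4% against 84.7%, and the AUA bars are level at 48.1% and 47.8%.

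The other genes of the ubiquitin system were examined as a list of 70 genes. A site was present in 54 of them, or 77.1%, and a 3′UTR site in 48, or 68.6%, with 170 3′UTR sites in all. The shares over all protein-coding genes were 37.6% and 31.8%. Of the 41 ligases and ligase subunits 32 had a 3′UTR site, or 78%, and of the 12 modifiers 9, or 75%. Of the 9 activating enzymes 4 had one, or 44.4%, and of the 8 conjugating enzymes and variants not named UBE2 3, or 37.5%. With the deletion required in at least 10% of tags, 22 genes of the list had a 3′UTR site, or 31.4%, against 13.6% of all genes. The most deletions were found in SUMO3, a ubiquitin-like modifier, with 1046 of 40532 tags (2.58%, 2.43 to 2.74%) at 11 nt from an end. UBB, a polyubiquitin gene, followed with 825 of 31084 tags (2.65%, 2.48 to 2.84%) at 13 nt. UBA3, a subunit of the activating enzyme for NEDD8, had 559 of 26560 tags (2.1%, 1.94 to 2.28%) at 24 nt, whereas the NEDD8 enzymes UBE2M and UBE2F had no site. UFM1, a ubiquitin-like modifier, had 378 of 8257 tags (4.58%, 4.15 to 5.05%) at 660 nt, and MARCHF6, a ligase of the endoplasmic reticulum, had 262 of 11311 tags (2.32%, 2.05 to 2.61%) at 12 nt. Of the UBE2 members, UBE2C and UBE2E1 had more deletions at a single site than SUMO3.

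The genes of the list without any site included UBA7, SAE1, ATG7, AKTIP, UFC1, ATG10, ISG15, UBD, RNF7, RNF8, RNF20, RNF40, STUB1, ANAPC2 and FZR1. Known partners were alike in some cases and not in others, and the examples below are not a count over all pairs. RNF20 and RNF40, the ligase that acts on histone H2B with UBE2A and UBE2B, had no site, and both E2s did. UBA7 and ISG15, which act with UBE2L6, were without a site, as was UBE2L6. Of genes known to be active in MDA-MB-231, VIM held 14 sites, CD44 30, CAV1 32 and AXL 6. ESR1 and PGR, which this line is known to lack, held none, but only 37.6% of all protein-coding genes held a site. Because tags were pooled, these counts cannot tell the replicates apart and do not bear on the cell line label of replicate 2.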

How the data were processed

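RBMS3 CLIP-seq was analysed from 1 list that pools both replicates. Per the study's methods, the authors appended molecular identifiers to the reads and used the CLIP Tool Kit for alignment to hg38, filtering and calling of crosslinking-induced deletion sites (false discovery rate under 10%, fold over 10). That tags were unique and pooled is taken from the name of the deposited list. The CLIP Tool Kit version is not given in the sources used here. The deposited values are counts, not normalized: tags with the deletion per site, and, in a text column of another kind, the tags that cover it. Library totals were not analysed here.

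Intervals of 21 nt were reduced to their central base, 10 nt from each edge. Positions count from 1. A site belonged to a member if that base lay in the gene on its strand, and regions were assigned over all GENCODE release 44 transcripts of the gene in the order 3′UTR, 5′UTR, coding sequence, other exon, intron. Sites within 50 nt formed a cluster, represented by its strongest site. Windows had 25 nt on each side. Wilson intervals were at 95%. Python 3.11.15, scipy 1.17.1 and matplotlib 3.10.9 were used, and the functions were tested on simulated data with planted sites.

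Members and gene lists were chosen with earlier results of these data known. Values of 1 member and the name of 1 further gene are not reported here, but both remain in the counts over members and lists. Every other member was named with its number of sites or its values, members with a 3′UTR site were described by their site with the most deletions, and the 12 with the most deletions there were given in full with that exception, UBE2D1 and UBE2J1 being tied for the last place. Of the 70 other genes of the ubiquitin system, the 5 with the most deletions and those without a site were named, with the exception above. With 1 group, pooled tags and no control library, no test was run, and members were set beside all protein-coding genes. Alternatives covered minimum deletions, deletion percentage, the transcripts used, strand, window and cluster size. Sequences came from the hg38 reference, and sequences on chromosome 8 are not printed.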

Additional observations from a re-analysis of the deposited data

How the results depend on the processing

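With at least 10% of tags required to carry the deletion, 17 members had a site and 14 a 3′UTR site, 27 member sites remained with 70.4% of them in 3′UTRs, and 22 genes of the ubiquitin list had a 3′UTR site. Under the same filter the median distance to an end was 428 nt, 31.6% of sites lay within 100 nt, 21.1% of clusters held a poly(A) signal and 26.3% the AUA motif. With at least 50 deletions, 77 sites remained, 100% in 3′UTRs and 70.1% within 100 nt, and the signal and AUA shares of clusters were 73.5% and 64.7%. The 3′UTR share was 98.2% with at least 20 deletions and 100% at sites under 30%, where 72.1% of clusters held a signal. With 1 representative transcript the median distance was 756 nt and 33.9% lay within 100 nt, and with protein_coding transcripts only these were 262 nt and 46.5%. With 1 site per cluster they were 89 nt and 51.9%. With 1 site per gene, 72% lay within 100 nt and 72% held a signal. Windows of 10 nt on each side gave 27.8% with a signal and 13% with the AUA motif, and fewer bases are searched there. The remaining alternatives moved no value beyond its interval or a count by over 1.5 times, which held for 62 recomputed values against 27 listed above, and T stayed the most often deleted base. Otherwise the cause was not tested.

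No paired analysis was possible because the tags of both replicates were merged before the sites were called. For the same reason leaving out a replicate was not run, and a site can rest on 1 replicate. Sites with few tags, such as 8 of 12, have wide intervals, and for transcripts without a site the coverage is unknown.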
